A study of Mus musculus with 14 samples.

Results

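Interferon-stimulated genes are the genes that a cell switches on when an interferon binds its receptor. The 35 mouse genes listed as such were followed in every library of the series, out of 52550 genes in the count table. All 35 were found by symbol. Of these, 32 had enough counts to be tested in the comparison of MLL-AF9 cells with wild-type cells. Ifi44 was tested in the knockout comparison only, and Ifi203 and Cxcl10 in none.

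The 14 libraries were total RNA from C57BL/6 mouse cells. WT HSPCs were hematopoietic stem and progenitor cells enriched from the bone marrow of wild-type mice (4 libraries). Mir139KO HSPCs were the same preparation from mice in which Cas9 nickase had deleted the microRNA gene Mir139 (4 libraries). MLL-AF9 cells were WT HSPCs carrying a retrovirus with the human fusion oncogene MLL-AF9, 3 cultures with the vector pMSCV-MLL-AF9-neo (replicates 1 to 3) and 3 with pMSCV-MLL-AF9-puro (replicates 4 to 6). These cultures grew with SCF, GM-CSF and the interleukins IL-6 and IL-3, were drug selected and replated in semisolid medium, and no HSPC culture without the fusion is analysed here, so the effects of the fusion, the virus, the selection and the culture cannot be told apart. The enriched marrow came from mice of several ages and is a mixed population, and the labels do not say which HSPC libraries, if any, were made after expansion in culture. As the RNA is bulk, fewer cells of a type and less RNA per cell cannot be told apart either. Labels do not say whether libraries of a group came from separate mice or separate transductions, so a p-value measures only the spread between these libraries.

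In outline, the pathway runs from sensors of foreign RNA and DNA to the secretion of type I interferon, which binds the receptor pair Ifnar1 and Ifnar2. The kinases Jak1 and Tyk2 then set off the assembly of the complex ISGF3, which holds Stat2 and Irf9 and binds a DNA element in front of its target genes. The targets include antiviral effectors, the sensors themselves and the transcription factor Irf7, so that the response amplifies itself. Stem and progenitor cells are known to keep a low level of many of these transcripts without infection.

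The element bound by ISGF3, the interferon-stimulated response element, is shown in the promoters of 5 members with lower transcript levels in MLL-AF9 cells. They are the 5 with the largest change among those whose listed promoter holds the letters GAAANNGAAA on either strand. The windows are the 170 bases before the RefSeq transcription start in the GRCm38.p6 assembly, read 5′ to 3′ on the strand of the gene, and capitals mark the element (overlapping copies run together). Rsad2 lies on the minus strand (chr12:26456453-26456622), Ifit3 and Ifit1 on the plus strand (chr19:34583359-34583528 and chr19:34640719-34640888), and Isg15 and Oas3 on the minus strand (chr4:156200819-156200988 and chr5:120777660-120777829).

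Rsad2: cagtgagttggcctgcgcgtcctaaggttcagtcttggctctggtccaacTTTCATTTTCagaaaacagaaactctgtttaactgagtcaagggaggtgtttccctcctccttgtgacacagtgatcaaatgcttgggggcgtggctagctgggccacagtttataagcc
Ifit3: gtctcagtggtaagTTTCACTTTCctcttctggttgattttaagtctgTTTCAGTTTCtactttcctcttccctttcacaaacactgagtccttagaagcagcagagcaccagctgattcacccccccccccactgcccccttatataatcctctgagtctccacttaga
Ifit1: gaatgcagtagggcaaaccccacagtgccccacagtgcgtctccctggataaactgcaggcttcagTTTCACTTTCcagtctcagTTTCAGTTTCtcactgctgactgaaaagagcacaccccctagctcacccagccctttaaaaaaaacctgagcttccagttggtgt
Isg15: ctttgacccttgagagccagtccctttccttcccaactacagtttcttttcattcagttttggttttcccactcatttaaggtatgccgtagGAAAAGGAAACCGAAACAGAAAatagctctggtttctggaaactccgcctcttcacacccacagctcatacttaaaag
Oas3: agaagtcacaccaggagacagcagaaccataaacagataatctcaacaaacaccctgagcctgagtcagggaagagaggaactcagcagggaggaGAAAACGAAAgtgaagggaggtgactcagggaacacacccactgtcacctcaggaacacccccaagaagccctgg

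The Isg15 window held 3 overlapping copies, between 78 and 57 bases before the start. Ifit1 and Ifit3, neighbours on chromosome 19, held 2 copies each on the other strand. In windows of 250 bases before to 50 after the start, 14 of the 23 members with a listed promoter held the letters (60.9%), against 1079 of 27025 genes (3.99%). The element was found in 6 of 11 members that were lower in MLL-AF9 cells than in WT HSPCs and in 5 of 8 that were tested and not called. Ifih1, the member that was higher, held 1 copy that began 33 bases into its transcript, and Oasl1, with the largest fall, held none in this window. A match is a description of letters and not a measured binding site.

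Levels were compared between genes per kilobase of exon. Values are CPM, the counts of a gene scaled to the same normalised library size in every library (by edgeR's TMM factors), per kilobase. Ly6e, a lipid-anchored membrane protein, led in every group, at 354 ± 153 CPM per kb in WT HSPCs (n = 4, SD), 385 ± 121 in Mir139KO HSPCs (n = 4) and 63.7 ± 33.2 in MLL-AF9 cells (n = 6). Bst2, the virion tether tetherin, came next in all 3 groups, at 42.1 ± 15.8, 46.6 ± 13.1 and 13.8 ± 3.03 CPM per kb. In both HSPC groups Ifi27l2a, Ifi35, Irf9 and Oas1a followed in that order of mean level, whereas in MLL-AF9 cells Ifi35, Trim30a, Oas1a and Stat2 did. From Bst2 downward in the HSPC groups, and from Ifi35 downward in MLL-AF9 cells, neighbours in this order had overlapping ranges of mean ± SD. At the other end Cxcl10, a chemokine, was listed at 0 in all 14 libraries and Ifi203 had 0 or 1 count in each. A listed 0 is not evidence of absence in this table, because B2m, a gene that almost every nucleated cell uses, was also at 0 in all 14 libraries.

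**Figure D1:**
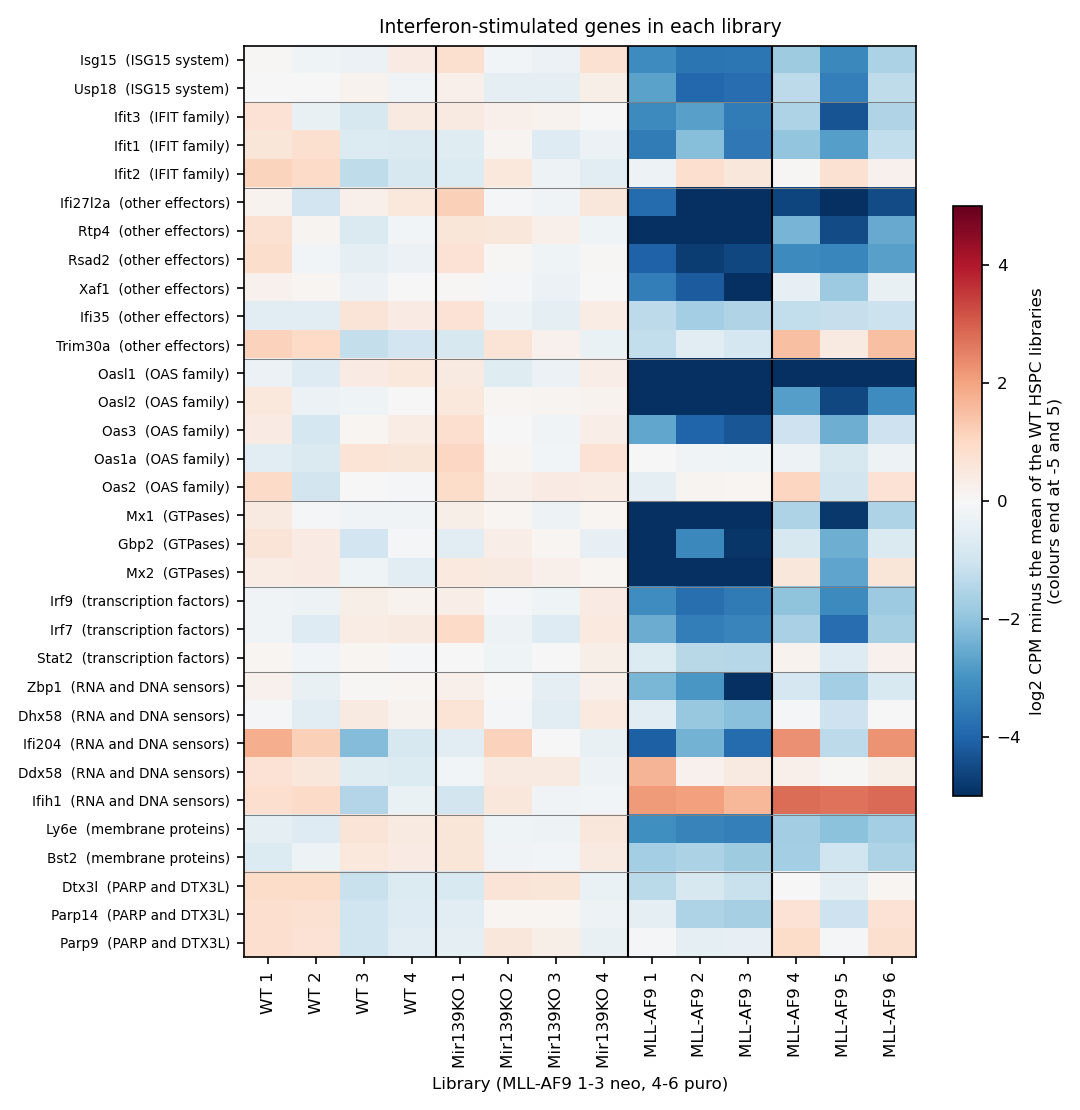
Heat map of the 32 tested members (rows, grouped by role) in the 14 libraries (columns). Colour gives log2 CPM minus the mean of the 4 WT HSPC libraries. MLL-AF9 columns are mostly blue, Ifih1 is red in all 6, and for Mx2, Ifi204 and Trim30a replicates 4 and 6 are red where the neo cultures are blue.

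The first comparison asked how interferon-stimulated genes differed between MLL-AF9 cells and WT HSPCs. Of the 32 members tested, 17 were lower in MLL-AF9 cells (53.1%) and 1 was higher (3.12%), with edgeR's quasi-likelihood test at an adjusted p of 0.05. This has to be read against a comparison in which 62.2% of all 17077 genes tested were called, 29.4% lower and 32.8% higher. The median log2 fold change was -1.70 over the members and 0.14 over all genes. Members whose 6 MLL-AF9 libraries did not overlap the 4 WT libraries numbered 19 of 32 (59.4%), against 50.5% of all genes. Scaling by total counts alone moved the median of all genes to 0.69 and the higher share of all calls from 52.7% to 68.3%. It called 9873 of the 17077 genes and left 14 members lower and 1 higher. Mx1, Oas3 and Zbp1 were the members that lost their call.

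The deepest fall was in the OAS family, oligoadenylate synthetases that activate the nuclease RNase L and their relatives without that role. Oasl1 measured 11.4, 8.76, 18.6 and 20.1 CPM in the WT libraries and 0.0974, 0, 0.0545, 0.0404, 0.0784 and 0.038 CPM in MLL-AF9 replicates 1 to 6, that is 0 to 5 counts. Every WT library lay far above every culture, and the cultures lay at or near the 3 counts taken as the detection floor, so the fitted size depends on the prior count. Its log2 fold change was -8.10 ± 0.59 (SE, adjusted p = 1.63e-06).

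Oasl2 measured 12.1, 6.82, 7.21 and 8.32 CPM in WT HSPCs and 0.0779, 0.118, 0.109, 1.19, 0.314 and 0.912 CPM in the cultures (log2 fold change -4.26 ± 0.73, adjusted p = 0.000443). Oas3 measured 38.2, 15.7, 30.8 and 38.0 CPM in WT HSPCs against 4.69, 1.75, 1.43, 14, 5.25 and 14 CPM (-2.18 ± 0.61, adjusted p = 0.0079). For both genes the groups did not overlap and puro replicates 4 and 6 were the highest cultures, with Oas3 there just under the lowest WT library. Oas1a (-0.42 ± 0.33, adjusted p = 0.284) and Oas2 (0.08 ± 0.47, adjusted p = 0.891) were not called and overlapped, and Oas1a shares sequence with close copies, so its reads are uncertain.

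The ISG15 system, a ubiquitin-like tag and the protease that removes it, was lower as a pair. Isg15 measured 2.94, 2.42, 2.27 and 3.75 CPM in WT HSPCs and 0.273, 0.177, 0.182, 0.789, 0.255 and 0.912 CPM in MLL-AF9 cells (-2.73 ± 0.53, adjusted p = 0.000915). Usp18, the protease, measured 3.35, 3.41, 3.80 and 3.01 CPM against 0.487, 0.177, 0.200, 1.35, 0.274 and 1.37 CPM (-2.41 ± 0.60, adjusted p = 0.00413). No culture reached the lowest WT library for either gene, and replicates 4 and 6 again lay highest.

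Of the IFIT family, proteins that bind the ends of foreign RNA, 2 of 3 were lower. Ifit1 measured 1.45, 1.68, 0.567 and 0.557 CPM in WT HSPCs and 0.0390, 0.177, 0.0363, 0.202, 0.0980 and 0.380 CPM in the cultures (-2.79 ± 0.63, adjusted p = 0.00235). Ifit3 measured 1.51, 0.691, 0.501 and 1.26 CPM against 0.0584, 0.0984, 0.0363, 0.283, 0 and 0.285 CPM (-2.96 ± 0.74, adjusted p = 0.00438). Groups did not overlap, although both genes were close to 1 CPM at their highest and Ifit3 has a near-identical neighbour, Ifit3b. Ifit2, by contrast, spanned 1.33 to 7.05 CPM in WT HSPCs and 2.77 to 5.92 CPM in the cultures (0.05 ± 0.48, adjusted p = 0.935), and a correction for GC content turned it to -0.94 (adjusted p = 0.0216).

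Among the transcription factors, Irf9, the DNA-binding part of ISGF3, measured 60.6, 57.4, 84.5 and 77.8 CPM in WT HSPCs and 8.01, 5.04, 5.90, 17.1, 7.63 and 19.3 CPM in MLL-AF9 cells (-2.75 ± 0.40, adjusted p = 0.000144). Irf7, which drives interferon genes and its own group of targets, measured 21.7, 15.5, 31.2 and 33.4 CPM against 4.32, 2.14, 2.43, 7.78, 1.69 and 7.62 CPM (-2.57 ± 0.47, adjusted p = 0.000676). All 6 cultures lay under all 4 WT libraries for both factors. Stat2, the partner of Irf9, was not called at 44.0 ± 3.95 CPM in WT HSPCs and 31.4 ± 15.1 CPM in the cultures (-0.51 ± 0.35, adjusted p = 0.221), where replicates 4 and 6 lay above every WT library and the other 4 below. With the 3 neo cultures alone it was lower (-1.10, adjusted p = 0.0216), and with the 3 puro cultures alone the difference was -0.04 (adjusted p = 0.926).

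The membrane proteins were both lower. Ly6e measured 889, 806, 1950 and 1720 CPM in WT HSPCs and 149, 124, 115, 371, 304 and 382 CPM in MLL-AF9 cells (-2.49 ± 0.43, adjusted p = 0.000466). The highest culture, puro replicate 6, stood well under the lowest WT library. Bst2 fell from 38.0 ± 14.3 to 12.5 ± 2.74 CPM (-1.62 ± 0.29, adjusted p = 0.000508), without overlap.

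Other effectors held some of the deepest falls. Ifi27l2a, a small hydrophobic protein, measured 14.5, 6.59, 15.3 and 18.3 CPM in WT HSPCs and 0.838, 0.354, 0.345, 0.485, 0.216 and 0.532 CPM in the cultures (-4.89 ± 0.45, adjusted p = 6.8e-06). Rtp4, a chaperone of receptors, measured 4.67, 3.00, 1.64 and 2.49 CPM against 0.0195, 0, 0.0363, 0.505, 0.0784 and 0.437 CPM (-4.04 ± 0.90, adjusted p = 0.00215), and part of its exons is shared with another gene on the same strand. All cultures were below all WT libraries for both, and of the 6 cultures neo replicate 1 was highest for Ifi27l2a but replicate 4 for Rtp4.

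Rsad2, the antiviral enzyme viperin, measured 9.27, 4.52, 3.54 and 4.05 CPM in WT HSPCs and 0.253, 0.138, 0.163, 0.505, 0.471 and 0.722 CPM in the cultures (-3.85 ± 0.52, adjusted p = 9.85e-05), with no overlap. Ifi35 fell from 31.8 ± 13.2 to 12.0 ± 1.83 CPM (-1.42 ± 0.29, adjusted p = 0.00125), also with no overlap. Xaf1, a proapoptotic protein, lay below every WT library in all 6 cultures but missed the threshold (-1.64 ± 0.79, adjusted p = 0.0867). Trim30a, a ubiquitin ligase with near copies in the genome, ranged from 8.34 to 42.8 CPM in WT HSPCs and from 8.18 to 54.6 CPM in the cultures and was not called (0.14 ± 0.64, adjusted p = 0.866).

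The GTPases varied most between cultures. Mx1, a dynamin-like antiviral GTPase that carries an inactivating deletion in C57BL/6 mice, measured 14.6, 10.3, 9.55 and 9.44 CPM in WT HSPCs and 0, 0.0394, 0, 3.70, 0.333 and 3.65 CPM in MLL-AF9 replicates 1 to 6. The groups did not overlap, and the cultures ran from 0 counts to 192. The call was marginal (-3.11 ± 1.27, adjusted p = 0.0482) and stood in 8 of 23 alternative settings. Gbp2, a guanylate-binding protein, missed it (-2.15 ± 0.89, adjusted p = 0.0502) and was called in 11 of 23. Mx2, annotated as a polymorphic pseudogene, was not called (-0.998 ± 1.30, adjusted p = 0.517). With the neo cultures alone all 3 were lower than in WT HSPCs, at -9.45 for Mx1 (adjusted p = 2.71e-05), -8.30 for Mx2 (adjusted p = 5.87e-05) and -4.59 for Gbp2 (adjusted p = 0.00147), sizes that depend on the prior count because Mx1 and Mx2 had 2 and 1 counts there in all.

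Ifih1 was the single member that was higher, named here after its value was seen. It encodes MDA5, a sensor of long double-stranded RNA, and measured 10.4, 11.5, 2.07 and 4.61 CPM in WT HSPCs and 25.8, 24.1, 18.7, 40.2, 38.6 and 41.6 CPM in MLL-AF9 cells. Every culture exceeded every WT library, and the puro cultures exceeded the neo cultures. The log2 fold change was 2.12 ± 0.47 (adjusted p = 0.00221), and it remained called in all 23 alternative settings, between 1.26 and 3.14. Of the other sensors of nucleic acids, Zbp1 was lower (-1.76 ± 0.64, adjusted p = 0.0292), at 10.2 ± 1.63 CPM in WT HSPCs and 3.04 ± 2.34 CPM in the cultures. The call stood in 15 of 23 alternative settings and ended with the correction for GC content. Ddx58, which encodes the RNA sensor RIG-I (0.47 ± 0.43, adjusted p = 0.354), Dhx58, which encodes their regulator LGP2 (-0.78 ± 0.44, adjusted p = 0.139), and the DNA sensor Ifi204 (0.05 ± 1.24, adjusted p = 0.974) were not called. With the neo cultures alone Ifi204 was lower (-4.16, adjusted p = 0.00658), and with the puro cultures alone it stood at 1.04.

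The ubiquitin ligase Dtx3l (-0.80 ± 0.44, adjusted p = 0.133), its partner Parp9 (-0.01 ± 0.44, adjusted p = 0.99) and the ADP-ribosyltransferase Parp14 (-0.44 ± 0.56, adjusted p = 0.506) were not called and overlapped between groups. Parp9 and Dtx3l share 458 bp of exon on opposite strands, and how strand was used in counting is not given in the sources used here. Ifi44, with 0.530 ± 0.365 CPM in WT HSPCs and 0.0447 ± 0.0300 CPM in the cultures, was too low to test.

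**Figure D2:**
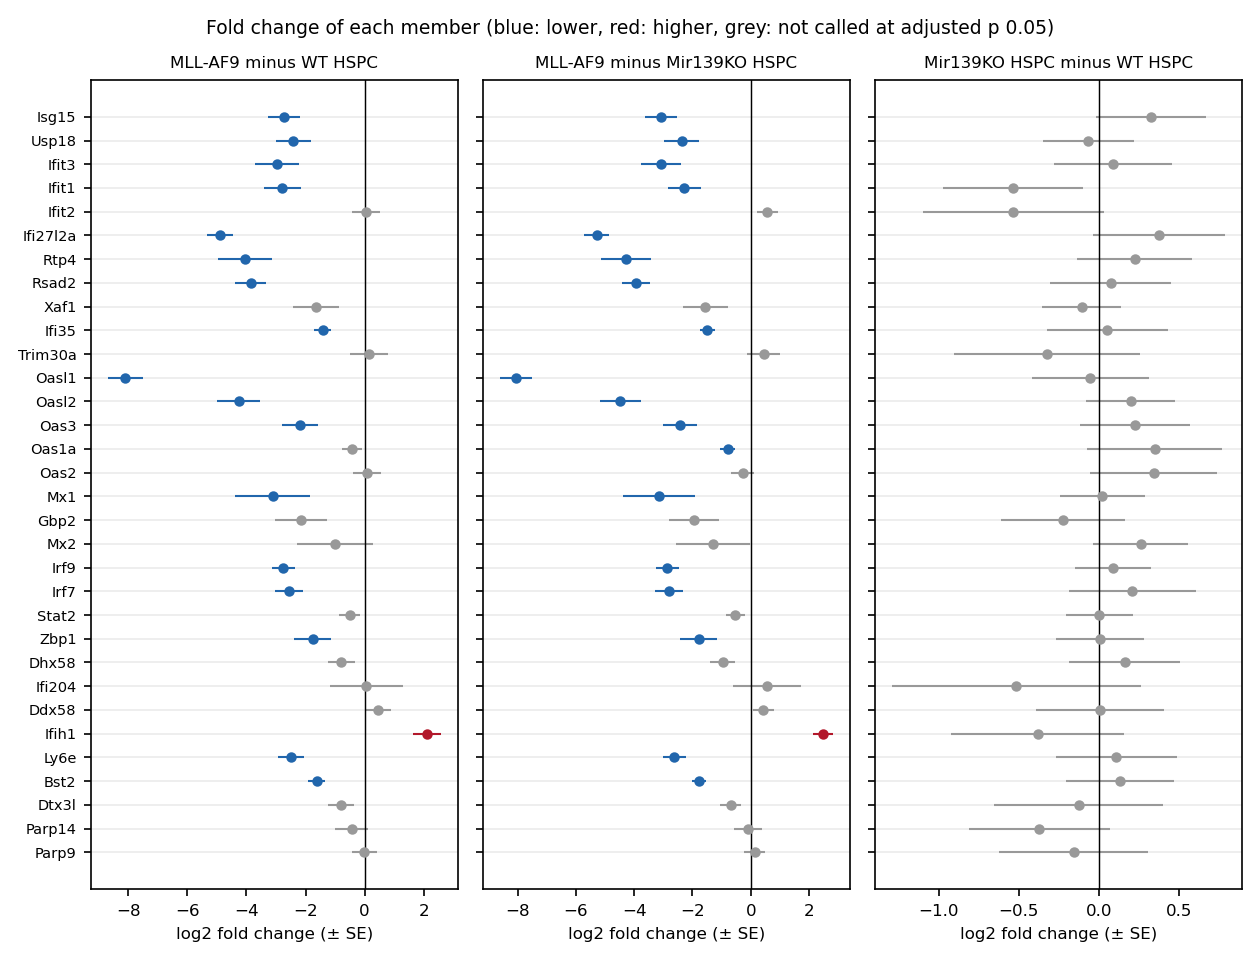
Log2 fold change of the 32 members (points, with SE bars) in 3 comparisons. Blue points were lower and red points higher at an adjusted p of 0.05, and grey points were not called. Falls reach -8.10 in the left panel, whereas every point of the right panel, on its own narrower axis, is grey.

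Mir139KO HSPCs were compared with WT HSPCs to ask whether loss of the microRNA moved these genes. The targeted gene, Mir139, was listed at 0 in all 14 libraries, so the deletion cannot be checked here. None of 33 members was called, as was none of 15056 genes (0.0%) with edgeR and none with DESeq2. At an unadjusted p under 0.05 edgeR gave 86 genes (0.571%) and 0 members, and 72 genes (0.478%) and 0 members did not overlap. Member log2 fold changes ran from -0.79 for Ifi44 to 0.38 for Ifi27l2a, with SEs between 0.21 and 0.78 and a median of 0.02, against -0.03 over all genes. A p that misses the threshold does not show equal levels, and smaller shifts were not detectable with these SEs.

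Leaving aside members with a mean log2 CPM under 1, the largest differences were those of Ifit2 (-0.53 ± 0.56), Ifi204 (-0.52 ± 0.78) and Ifih1 (-0.38 ± 0.54), each at an adjusted p of 1. Ifit2 measured 7.05, 6.41, 1.33 and 1.86 CPM in WT replicates 1 to 4 and 2.02, 4.70, 2.70 and 2.22 CPM in Mir139KO replicates 1 to 4. Both groups held high and low libraries, and their ranges overlapped. Ifi204 measured 9.70, 6.20, 0.567 and 1.52 CPM in WT HSPCs and 1.85, 6.12, 2.65 and 2.11 CPM in Mir139KO HSPCs, with the same overlap.

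Within both HSPC groups the members varied with the share of counts taken by 1 noncoding transcript, Gm26917, and the part of that share in the results was not tested. It took between 17.0% and 21.9% of the counts in WT replicates 1 and 2 and Mir139KO replicates 2 and 3, and between 32.7% and 35.4% in the other 4 HSPC libraries. Trim30a, for example, ran from 22.5 to 42.8 CPM in the libraries with the low share and from 8.34 to 15.3 CPM in those with the high share. Ly6e ran the other way, from 806 to 1080 CPM against 1720 to 1950 CPM.

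Between these share classes 17 of 33 members did not overlap (51.5%), 8 higher and 9 lower in the low-share libraries, beside 65.2% of all genes. Across the 33 members the difference between classes ran with GC content (Spearman's rho -0.90, and -0.74 across 15038 genes), where genes are not independent replicates and share the same 8 libraries. Ifi204 (40.6% GC), Trim30a (40.8%), Dtx3l (45.9%) and Ifit2 (42.0%) stood highest in the low-share libraries, by 2.001, 1.58, 1.497 and 1.40 log2 units. Oas1a (52.0% GC), Irf7 (55.4%), Ifi35 (54.1%) and Ly6e (55.4%) stood lowest, at -1.11, -0.995, -0.98 and -0.96. Each HSPC group held 2 libraries of each class. Adding the share class to the model gave 0 calls among the members in Mir139KO against WT HSPCs.

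**Figure D3:**
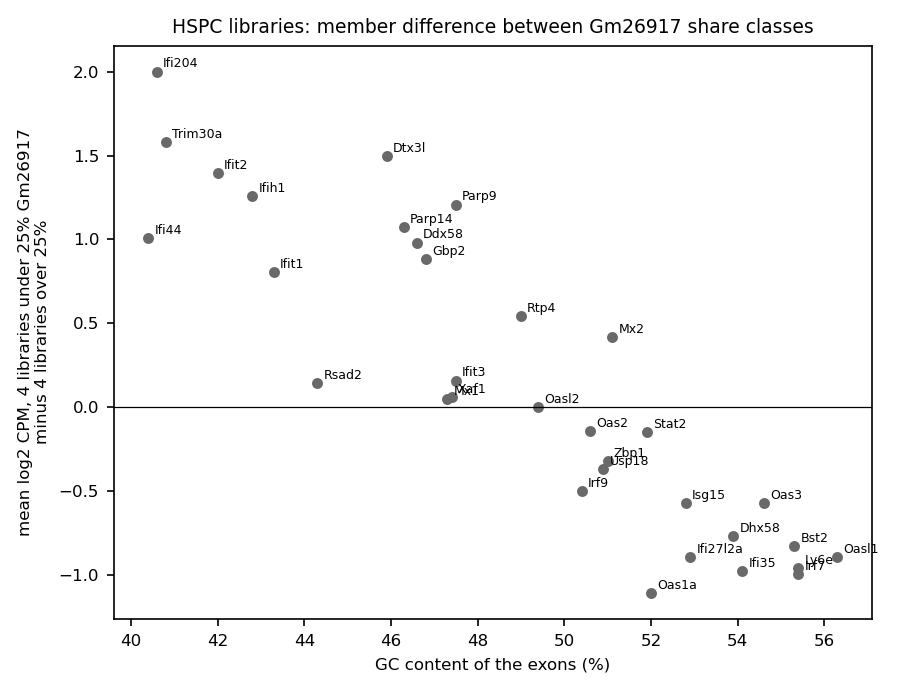
GC content of each member's exons in percent (x axis) against its mean log2 CPM in the 4 HSPC libraries under 25% Gm26917 minus that in the 4 over 25% (y axis), 1 point per member, 33 in all. The highest point is Ifi204 (2.001 at 40.6% GC) and the lowest is Oas1a (-1.11 at 52.0% GC).

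The fall in MLL-AF9 cells was also measured within each share class. Against the 2 low-share WT libraries alone, 16 of 33 members were lower and 1 higher. The same fit called 7665 of 18331 genes, 50.2% of them higher. The 2 high-share WT libraries alone gave 15 of 32 members lower and 2 higher, and 11452 of 18244 genes, 52.6% of them higher. The members differed in part, since Mx1, Zbp1 and Oas3 lost their call against the low-share libraries and Mx1, Zbp1 and Ifit1 against the high-share ones. Dtx3l gained a call as lower against the low-share libraries and stood at 0.284 against the high-share ones. Oas1a gained one as lower against the high-share libraries and stood at 0.321 against the low-share ones. Ifih1 was higher in both fits. Ifit2 was the other member higher against the high-share libraries, and it stood at -0.69 against the low-share ones. MLL-AF9 libraries themselves had 7.55% to 10.4% of their counts in Gm26917, below every HSPC library, so that share and group cannot be told apart in the whole comparison.

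MLL-AF9 cells were then compared with Mir139KO HSPCs, which share the MLL-AF9 libraries with the first comparison and so are no independent repeat of it. Of 32 members, 18 were lower and 1 higher, against 31.9% lower and 37.3% higher of 16953 genes (69.3% called). The median was -1.78 over members and 0.16 over all genes. Scaling by total counts alone moved the latter to 0.84 and the higher share of all calls from 53.9% to 71.4%. It called 11220 of the 16953 genes and left 15 members lower and 3 higher. Ifit2 and Ddx58 were the higher members that gained a call. Oasl1 stood at -8.06 ± 0.55 (adjusted p = 4e-07), Ifi27l2a at -5.29 ± 0.44 (adjusted p = 1.41e-06), Irf9 at -2.87 ± 0.39 (adjusted p = 4.5e-05) and Ifih1 at 2.48 ± 0.35 (adjusted p = 6.6e-05). Oas1a was called here (-0.80 ± 0.27, adjusted p = 0.0185), at 20.6 ± 7.66 CPM in Mir139KO HSPCs and 12.0 ± 2.01 CPM in the cultures, though their ranges overlapped. That call stood in 16 of 23 alternative settings and ended with the correction for GC content, with the neo cultures alone, with the low-share HSPC libraries alone and without Mir139KO replicate 1 or 4. The other 17 lower members were those already lower against WT HSPCs.

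The puro cultures were compared with the neo cultures to see whether the vector arms differed. Ly6e was the single member called (beside 144 of 16503 genes, 0.873%), at 353 ± 42.2 CPM in puro and 129 ± 17.6 CPM in neo cultures (SD, n = 3 each, 1.45 ± 0.21, adjusted p = 0.0368). At an unadjusted p under 0.05 edgeR gave 18 of 28 members (64.3%), all higher in puro, against 13.7% of genes. The 3 puro and 3 neo cultures did not overlap for 16 members (57.1%), 15 of them higher in puro, against 19.9% of genes. The median was 1.34 over the members and -0.02 over all genes. Leaving out any 1 of replicates 1, 2, 3, 4 and 6 left no member called, and leaving out replicate 5 gave 11 members and 990 genes, while DESeq2 called 11 members and 1326 genes.

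The arms were not uniform inside. Mx2 measured 0, 0 and 0.0182 CPM in neo replicates 1 to 3 and 4.19, 0.412 and 4.24 CPM in puro replicates 4 to 6. Ifi204 measured 0.117, 0.492 and 0.145 CPM against 13.6, 1.08 and 13 CPM. Replicate 5 lay between the neo cultures and the other 2 puro cultures for both.

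Because neo counts were so low, ratios of summed counts are given in place of fitted values. Summed over each arm, Mx1 had 392 counts in puro and 2 in neo, a ratio of 201 (95% exact interval 55.3 to 1670, counting error only). Mx2 had 451 and 1, a ratio of 463 (82.7 to 18300). Ifi204 had 1415 and 39, a ratio of 37.3 (27.1 to 52.6). These intervals leave out the spread between cultures, which is wide.

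Other members higher in puro at the unadjusted threshold covered most roles. They included the ISGF3 parts Irf9 (1.23 ± 0.43, adjusted p = 0.277) and Stat2 (1.08 ± 0.35, adjusted p = 0.242), and the effectors Xaf1 (3.48 ± 0.66, adjusted p = 0.0774), Oasl2 (2.97 ± 0.65, adjusted p = 0.104), Oas3 (2.09 ± 0.63, adjusted p = 0.209), Rsad2 (1.603 ± 0.47, adjusted p = 0.193) and Isg15 (1.63 ± 0.61, adjusted p = 0.307). Gbp2 (3.34 ± 1.02, adjusted p = 0.213), Trim30a (2.10 ± 0.38, adjusted p = 0.0687), Zbp1 (2.05 ± 0.78, adjusted p = 0.32) and Ifih1 (0.81 ± 0.21, adjusted p = 0.151) followed, as did Parp14 (1.46 ± 0.58, adjusted p = 0.341), Dtx3l (0.98 ± 0.27, adjusted p = 0.165) and Parp9 (0.94 ± 0.35, adjusted p = 0.3). None of these met the adjusted threshold. Ddx58 had the lowest value, -0.75 ± 0.43 (adjusted p = 0.524), set by neo replicate 1 at 43.9 CPM against 13.9 to 18.3 CPM in the other 5 cultures.

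Across the 6 cultures, replicates 4 and 6 were the highest pair for 22 of 28 members (78.6%) and the lowest pair for 0. Among all 16503 genes they were the highest pair for 19.6% and the lowest for 22.1%. The pair was singled out after its values were seen. Replicates 4 and 6 were also the most alike libraries of the series within a group, with a chi-square of 9.05 per degree of freedom over genes, where other pairs gave 22.3 to 1302. They differed by more than counting noise and were kept as 2 samples, but repeat libraries of 1 culture could differ as much, and the labels do not say whether they were separate cultures. The n of 3 puro cultures, and the calls made without replicate 5, rest on counting them as 2. Summed to 1 sample they left 0 members called between the arms, beside 5 of 17363 genes. Against WT HSPCs the summed fit gave 19 of 32 members lower and 1 higher. It called 10030 of 16900 genes, 52.7% of them higher.

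**Figure D4:**
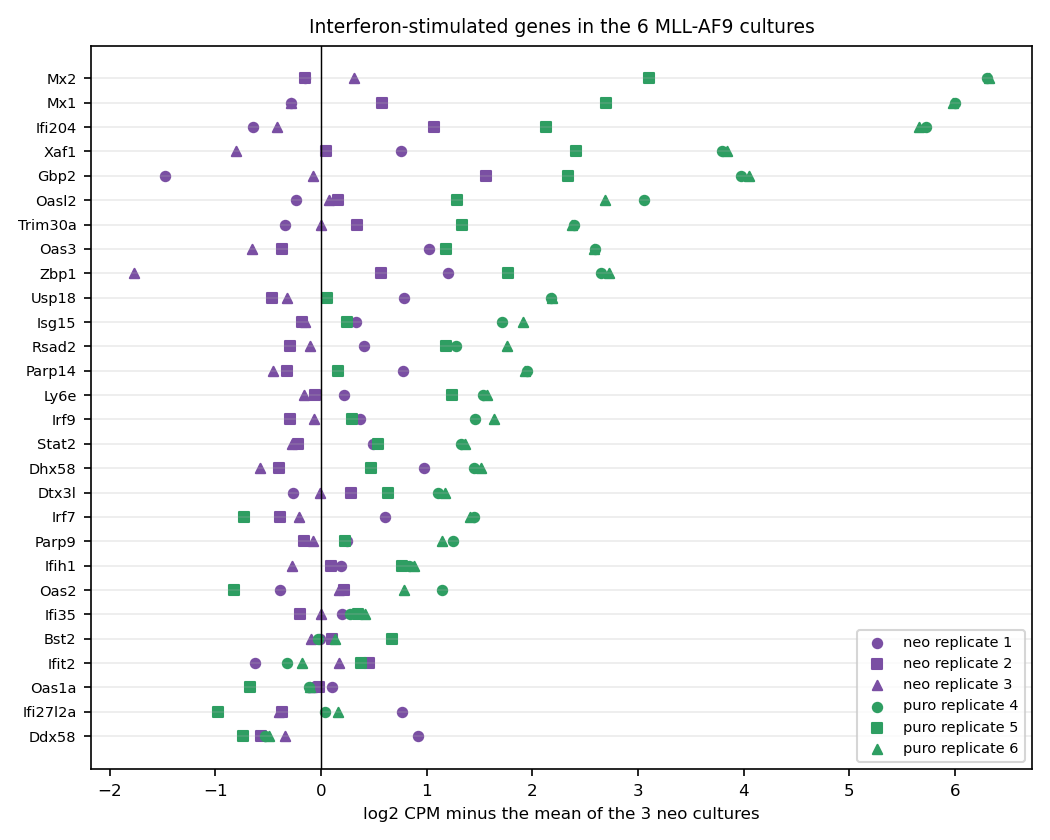
Log2 CPM of 28 members in the 6 MLL-AF9 cultures, each minus the mean of the 3 neo cultures (x axis), sorted by the puro minus neo fold change. Green circles and triangles, puro replicates 4 and 6, lie farthest right for 22 members, and the green square, puro replicate 5, lies left of both for those members.

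**Figure D5:**
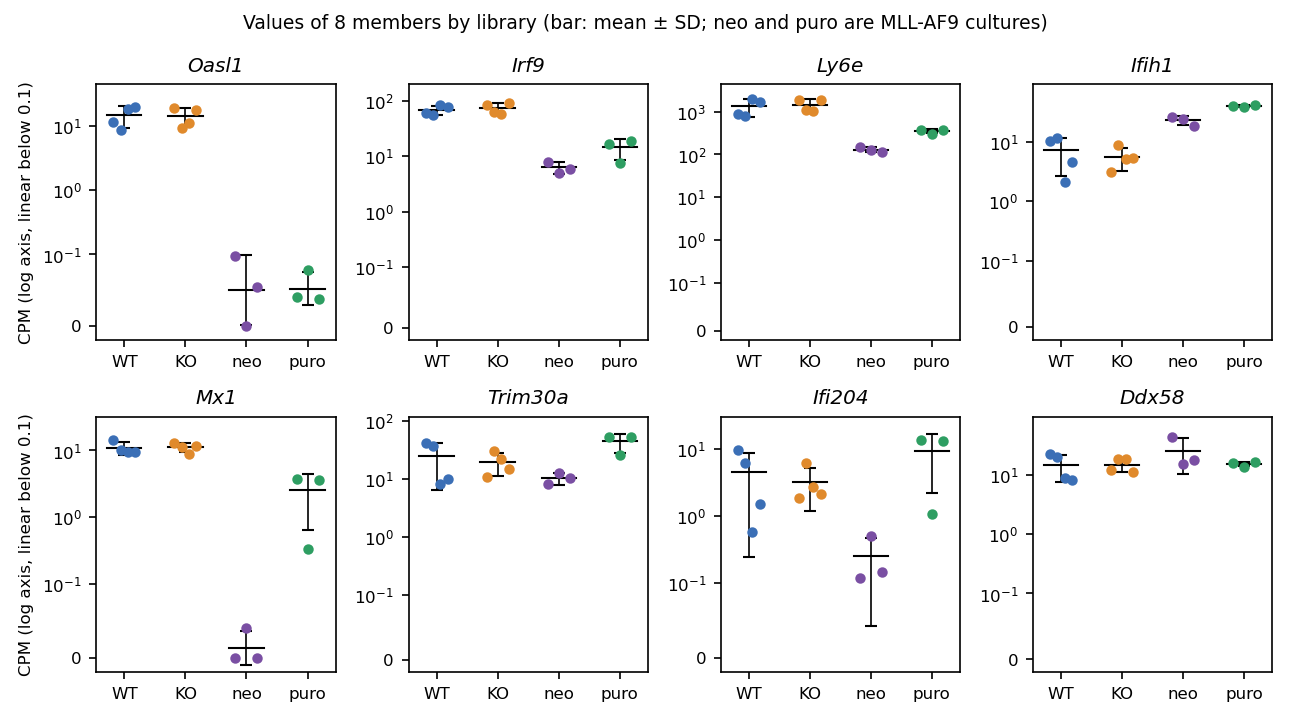
CPM of 8 members in each library on a log axis that is linear below 0.1, with mean and SD for WT HSPCs, Mir139KO HSPCs, and neo and puro MLL-AF9 cultures. Oasl1 is near 0 in both arms, Ifih1 is above both HSPC groups in both arms, and Mx1 and Ifi204 separate the arms.

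Genes upstream of the members moved in both directions. Of 58 genes of the interferon pathway, 45 were tested in MLL-AF9 cells against WT HSPCs, and 17 were lower (37.8%) and 8 higher (17.8%), beside 29.4% and 32.8% of all genes. The median log2 fold change was -0.21, beside 0.14 over all genes. None of the 10 interferon genes had enough counts to test, and Ifnb1 had 2 counts in the whole series. Of the 6 receptor chains tested 2 were lower and 0 higher. The type I receptor chains were not called, with Ifnar1 at 62.8 ± 19.8 CPM in WT HSPCs and 49.5 ± 12.3 CPM in the cultures (-0.36 ± 0.28, adjusted p = 0.27) and Ifnar2 at 43.6 ± 3.71 and 52.8 ± 15.1 CPM (0.26 ± 0.26, adjusted p = 0.4).

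Below the receptor, the kinase gene Jak1 was not called (0.31 ± 0.32, adjusted p = 0.401), and the kinase gene Tyk2 was lower (-1.06 ± 0.34, adjusted p = 0.0157). Of 6 further interferon regulatory factors tested, which act on interferon genes and their targets, 4 were lower and 1 was higher. Irf5 fell from 114 ± 31.1 to 10.7 ± 8.24 CPM (-3.43 ± 0.53, adjusted p = 0.000228). Irf4 (-1.82 ± 0.59, adjusted p = 0.0173), Irf3 (-1.78 ± 0.29, adjusted p = 0.000283) and Irf1 (-1.73 ± 0.46, adjusted p = 0.00589) were lower too.

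Of 16 sensors and adaptors 5 were higher (31.2%) and 4 lower (25%), shares close to those of all genes. Tlr7, an endosomal RNA receptor, rose from 2.10 ± 1.89 to 19.6 ± 12.2 CPM (3.19 ± 0.79, adjusted p = 0.00394), and Aim2, a cytosolic DNA sensor, from 9.58 ± 6.35 to 80.3 ± 23.8 CPM (3.04 ± 0.48, adjusted p = 0.000251). Mavs, the adaptor through which the products of Ifih1 and Ddx58 signal, was lower (-1.73 ± 0.24, adjusted p = 0.000113). Of 12 negative regulators 6 were lower and 2 higher. They included Rnaseh2c (-2.16 ± 0.34, adjusted p = 0.000231) and Rnaseh2a (-1.93 ± 0.34, adjusted p = 0.000524), subunits of a nuclease that clears RNA and DNA hybrids, and the phosphatase gene Ptpn2 (2.51 ± 0.47, adjusted p = 0.000782), which was higher.

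A further list of 70 genes known to respond to interferon had 56 tested members, of which 25 were lower (44.6%) and 7 higher (12.5%) in MLL-AF9 cells against WT HSPCs, beside 29.4% and 32.8% of all genes (median -0.96, beside 0.14). The called genes with the largest changes included the peptide transporter gene Tap1 at -3.03 ± 0.50 (adjusted p = 0.000315), the immunoproteasome genes Psmb8 at -2.56 ± 0.62 (adjusted p = 0.00348) and Psmb9 at -2.37 ± 0.60 (adjusted p = 0.00454), and the proteasome activator gene Psme1 at -2.33 ± 0.28 (adjusted p = 3.59e-05). Cmpk2 (-4.09 ± 0.58, adjusted p = 0.000124), a neighbour of Rsad2, Ube2l6 (-3.34 ± 0.51, adjusted p = 0.000199), which passes ISG15 to its targets, and Lgals3bp (-3.20 ± 0.39, adjusted p = 4.78e-05) fell further. Cd274, the checkpoint ligand PD-L1, was higher, at 97.9 ± 64.6 CPM against 5.75 ± 2.80 CPM (4.07 ± 0.66, adjusted p = 0.000297), as were Samd9l (2.91 ± 0.65, adjusted p = 0.00209) and Eif2ak2 (2.57 ± 0.46, adjusted p = 0.000576), which encodes the RNA-dependent kinase PKR. Psmb10, Irf8 and Myd88, like B2m, were listed at 0 throughout and could not be described.

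In Mir139KO against WT HSPCs, 0 of 43 pathway genes and 0 of 56 further interferon-induced genes were called. Between the vector arms 0 of 45 pathway genes were called. Of 54 further interferon-induced genes 5 were higher (9.26%) and 1 lower (1.85%) in puro cultures, beside 0.564% and 0.309% of 16503 genes.

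The libraries held 35016668 to 45877994 counts. Marker lists of the cell types that marrow preparations can hold moved with the groups. All 8 HSPC markers averaged at least 1 CPM in WT HSPCs, with a summed level of 398 to 591 CPM, and 5 of 8 did so in MLL-AF9 cells (173 to 1070 CPM), where Cd34 was at 0.891 CPM against 39.8 CPM. The 6 MLL-AF9 target genes summed to 30.1 to 55.1 CPM in WT HSPCs and to 422 to 1490 CPM in the cultures. Meis1 (mean 19.5 and 463 CPM), which is also an HSPC marker, and Pbx3 (7.99 and 218 CPM) stood highest there. Mecom alone was lower in the cultures (1.65 and 0.757 CPM). Summed erythroid markers (7 genes) ran from 1050 to 1770 CPM in WT HSPCs and from 1.96 to 4.69 CPM in the cultures, those of mast cells, basophils and eosinophils (6 genes) from 444 to 683 and from 5.31 to 22.9 CPM, those of T and NK cells (8 genes) from 130 to 251 and from 2.49 to 12.0 CPM, and those of B cells (6 genes) from 29.0 to 61.1 and from 1.51 to 6.18 CPM.

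Monocyte and macrophage markers (8 genes) summed to 1320 to 1800 CPM in WT HSPCs and 333 to 1460 CPM in the cultures. Of these Csf1r (mean 348 and 26.8 CPM), Ly6c2 (791 and 326 CPM), Ms4a6c, Fcgr1 and Ms4a7 were lower in the cultures. Ccr2 (53.9 and 138 CPM) and Adgre1 (23.8 and 67.3 CPM) were higher, and F13a1 was alike (343 and 339 CPM). Neutrophil markers (8 genes) summed to 348 to 8530 and 260 to 3830 CPM. Plasma cell markers (5 genes) summed to 332 to 528 and 295 to 486 CPM, but in the cultures the sum was nearly all Xbp1 (mean 212 CPM in WT HSPCs and 362 CPM in the cultures), while Jchain went from 178 to 0.0418 CPM, Mzb1 from 13.1 to 0.0523 CPM, Sdc1 from 19.5 to 1.93 CPM and Irf4 from 15.2 to 4.32 CPM. Markers of plasmacytoid dendritic cells, a main source of type I interferon, summed to 68.9 to 118 CPM and to 480 to 900 CPM (8 genes). In the cultures the sum was nearly all Runx2 (mean 49.5 CPM in WT HSPCs and 514 CPM in the cultures) and Tcf4 (24.1 and 159 CPM). Siglech fell from 3.61 to 0.0132 CPM, Pacsin1 from 2.44 to 0.312 CPM and Klk1 from 0.146 to 0.0523 CPM, while Ccr9 rose from 0.164 to 1.27 CPM. Cox6a2 was at 0 in both groups and Ly6d at 0 in the cultures. Between the arms, HSPC markers summed to 173 to 329 CPM in neo and 525 to 1070 CPM in puro cultures, a difference carried by Meis1 (mean 166 and 760 CPM), which is also on the MLL-AF9 target list, while Kit stood at 79.6 and 55.4 CPM. Monocyte and macrophage markers summed to 333 to 837 CPM in neo and 882 to 1460 CPM in puro cultures. Among them Ccr2 (mean 3.52 and 273 CPM) and Ly6c2 (198 and 454 CPM) differed most in absolute CPM, and Fcgr1 was lower in puro (1.71 and 0.371 CPM). Csf1r (5.23 and 48.4 CPM) differed more in proportion than Ly6c2. It was high in replicates 4 and 6 (72.0 and 65.0 CPM) and not in replicate 5 (8.23 CPM). Summed neutrophil markers were lower in puro in their medians, at 1660 to 3830 CPM (median 2970) in neo and 260 to 1820 CPM (median 1800) in puro cultures. Of that list Mmp8 (mean 15.0 and 89.4 CPM) and Ly6g (7.32 and 21.4 CPM) were higher in puro. The part of these markers in the member differences was not tested.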

How the data were processed

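Total RNA was sequenced from 14 libraries after ribosomal RNA removal. Per the labels and methods, the authors aligned reads with STAR 2.5.3e to GRCm38, counted them per gene with featureCounts 1.6.0 on a GENCODE annotation and deposited raw counts, which were used as deposited. Their strand setting and treatment of multiply mapping reads are not given in the sources used here. A second deposited count table, which also holds samples of another series, was not used. Of 52550 gene IDs 147 were not found in GENCODE M21, which gave symbols, lengths and GC content.

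A gene was tested if the libraries where it reached 10 raw counts were no fewer than the libraries of the smaller group. Tested genes were fitted with edgeR 4.0.16 (R 4.3.3), using TMM factors, the quasi-likelihood test and Benjamini-Hochberg adjustment over all of them. Each fit held the compared groups only. A call is an adjusted p under 0.05. CPM use TMM factors of all 14 libraries, and log2 CPM a prior count of 2. DESeq2 1.42.0 and other settings were alternatives. Intervals of count ratios are exact at 95% (Clopper-Pearson) and cover counting error only. Promoters are RefSeq sequences of GRCm38.p6 from 250 bases before to 50 after the start, 32851 in all, and 23 of the 35 members matched one.

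The members and all gene lists were chosen with earlier results of these data known. All members tested are named, and a gene of the pathway list is not reported here. Values per library are given for the 14 members with the largest fold change called in MLL-AF9 cells against WT HSPCs and a mean of at least 1 CPM in a group, and for others chosen after their values were seen. Of each further list the 10 called genes with the largest fold change were named, if their mean log2 CPM reached 2, and Ifnb1, Ifnar1, Ifnar2, Jak1, Tyk2 and Irf3 regardless. In Mir139KO against WT HSPCs the 3 largest fold changes were named where the mean log2 CPM reached 1, and between the vector arms all members at an unadjusted p under 0.05. Libraries with the same number were not treated as pairs. Correlations of their deviations ran from -0.579 to 0.642, which cannot exclude pairing. Between Mir139KO and WT HSPCs they were positive for numbers 2 and 4, whose libraries were of the same Gm26917 share class. They were negative for numbers 1 and 3, whose libraries were of different classes.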

Additional observations from a re-analysis of the deposited data

Results flagged for a closer look

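In 96 checks of a member in a group of 4 or 6 libraries, 3 had 1 library far from the others by Dixon's ratio (the gap to the nearest library over the whole range, on log2 CPM). Chance flags about 1 in 20 such groups. Ddx58 was high in MLL-AF9 replicate 1 (log2 CPM 5.46, ratio 0.759), Oas1a was low in MLL-AF9 replicate 5 (log2 CPM 3.05, ratio 0.719) and Bst2 was high in MLL-AF9 replicate 5 (log2 CPM 4.17, ratio 0.707). Ly6e differed between the puro and neo cultures, with a log2 fold change of 1.446 (edgeR adjusted p = 0.0368).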

How the results depend on the processing

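Alternatives that named the neo or puro cultures, the share class of Gm26917 or total counts are described with the report, and the summing of MLL-AF9 replicates 4 and 6 was chosen after seeing the data. In the following the cause of a change was not tested. Oasl1 and Ifih1 were called in all 23 alternatives of MLL-AF9 cells against WT HSPCs. Leaving out 1 library gave 16 to 20 members called against WT HSPCs and 16 to 22 against Mir139KO HSPCs. These fits called 9361 to 10722 of all genes against WT HSPCs, with 16653 to 17650 tested. Against Mir139KO HSPCs they called 10868 to 11556, with 16512 to 17556 tested. Calls against WT HSPCs that ended when 1 library was left out were those of Mx1 (any library but MLL-AF9 replicates 4 and 6, adjusted p up to 0.157 over all alternatives) and Zbp1 (WT replicates 1 and 4, MLL-AF9 replicates 1 and 2, up to 0.177). Against Mir139KO HSPCs they were those of Mx1 (any Mir139KO replicate, MLL-AF9 replicates 2 and 5), Zbp1 (Mir139KO replicates 1 and 4) and Oas1a (Mir139KO replicates 1 and 4). Requiring a mean of 100 counts left 25 members tested against WT HSPCs, of which 11 were called, beside 7561 of 11738 genes. Of the members still tested, only Mx1 lost its call. In Mir139KO against WT HSPCs 1 gene was called with the libraries under 25% Gm26917 alone and 1 with those over 25%, and no member.

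Puro against neo depended most on the setting. Members called were 0 with total counts only, 0 with a mean of 100 counts, 0 with replicates 4 and 6 summed (5 genes), 4 without a count filter (221 genes), 9 with all 14 samples in 1 fit (761 genes) and 11 with DESeq2 (1326 genes). Leaving out 1 culture gave 0 to 11 members and 0 to 990 genes, with 990 genes and 11 members without replicate 5, 41 genes without replicate 1, 5 without replicate 4, 3 without replicate 6 and 0 without replicate 2 or 3.

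With replicate numbers as a block, 21 members were called against WT HSPCs (9300 genes), 23 against Mir139KO HSPCs (11455 genes), 0 in Mir139KO against WT HSPCs and 2 in puro against neo (214 genes). The block ended the call of Oas1a against Mir139KO HSPCs. The numbers are not shown to pair the libraries. With the block Trim30a (-0.391) and Ifi204 (-2.612) changed sign against WT HSPCs, Parp9 (-0.05), Trim30a (-0.335) and Ifi204 (-2.726) against Mir139KO HSPCs, and Ifi204 (0.052) in Mir139KO against WT HSPCs.

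Other changes of sign touched members that were not called, apart from Oas1a against Mir139KO HSPCs. Against WT HSPCs they were, with total counts only, Parp9 0.435, Parp14 0.013, Stat2 0.108 and Oas1a 0.329. They were Parp9 0.052 with a mean of 100 counts and Parp9 0.011 with all samples in 1 fit. With the GC content correction they were Parp9 0.002, Trim30a -1.012, Stat2 0.026, Ifit2 -0.94 (adjusted p = 0.0216), Oas1a 0.21 and Ifi204 -0.983. With the neo cultures only they were Trim30a -1.23, Oas2 -0.203 and Ifi204 -4.16, and with the puro cultures only Parp9 0.41, Mx2 0.028 and Parp14 0.133. With the libraries under 25% Gm26917 they were Trim30a -0.606, Oas2 -0.116, Ddx58 -0.095, Ifit2 -0.686, Oas1a 0.321 and Ifi204 -0.79, and with those over 25% Parp9 0.894, Parp14 0.508 and Dtx3l 0.284. With replicates 4 and 6 summed they were Trim30a -0.142, Oas2 -0.069 and Ifi204 -0.539.

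Against Mir139KO HSPCs they were, with total counts only, Oas2 0.5, Parp14 0.603, Stat2 0.23 and Oas1a 0.02, and with the GC content correction Trim30a -1.002, Oas2 0.154, Stat2 0.05, Ifit2 -0.717 (adjusted p = 0.0252) and Ifi204 -0.846. With the neo cultures only they were Parp9 -0.381, Trim30a -0.923 (adjusted p = 0.0412) and Ifi204 -3.654, and with the puro cultures only Oas2 0.019 and Parp14 0.494. With the libraries under 25% they were Parp9 -0.268 and Trim30a -0.009, with those over 25% Parp14 0.162, and with replicates 4 and 6 summed Parp9 -0.013 and Ifi204 -0.025. In Mir139KO against WT HSPCs the libraries over 25% gave Ifih1 0.308, Ifit2 0.381 and Ifi204 0.9.

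Leaving out 1 library changed the sign of some members, with ranges against WT HSPCs Parp9 from -0.276 to 0.279, Trim30a from -0.171 to 0.536, Oas2 from -0.192 to 0.511, Ifit2 from -0.256 to 0.434, Ifi204 from -0.601 to 0.758, and against Mir139KO HSPCs Parp9 from -0.048 to 0.336, Parp14 from -0.37 to 0.096, Ifi204 from -0.102 to 1.061, and in Mir139KO against WT HSPCs Ifi204 from -1.041 to 0.174.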
